A study of Mus musculus with 19 samples.

Results

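The respiratory chain and the ATP synthase were followed through 85 nuclear genes in differentiated 3T3-L1 cells, a clonal line of mouse fibroblasts that a hormone mixture makes into adipocytes. The genes were taken by symbol, as all that begin with Nduf (followed by a, b, c, s or v), Sdha to Sdhd, Uqcr, Cox4 to Cox8 or Atp5, without Cox6a2, Cox7a1, Cox8b and pseudogenes, out of 18820 gene symbols with a probe set of their own. Sorted by symbol alone, they comprise 36 genes of complex I, 4 of complex II, 7 of complex III, 14 of complex IV and 17 of complex V, the ATP synthase. Ndufa4l2 is thus counted with complex I and Cox7a2l with complex IV, and whether each symbol names a subunit was not checked. The pattern also took in 7 assembly factors of complex I (Ndufaf1 to Ndufaf7), which help to build the complex without being part of it and are described apart. All 85 symbols were found with the same spelling in RefSeq.

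Serum was withdrawn on day 7 of differentiation, and from day 8 a single fatty acid was present at 250 µM over 48 h. The acids of 16 carbons were palmitic acid (PA, saturated, 4 arrays) and palmitoleic acid (PMA, titled PMO on the arrays, 1 double bond, 4 arrays). Those of 18 carbons were stearic acid (SA, saturated, 4 arrays) and oleic acid (OA, 1 double bond, 3 arrays). On 4 control arrays the cells had the carriers alone, ethanol and bovine serum albumin at 2%, which the acid-treated cells received too. Each group was thus compared with serum-free, albumin-treated cells of a single line. The arrays are titled biological replicates, but nothing says that they came from separate cultures, so p-values measure the spread between these arrays, part of which may be technical.

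In the respiratory chain, complexes I and II pass electrons from NADH and succinate to ubiquinone, complex III passes them on to cytochrome c, and complex IV gives them to oxygen. Complexes I, III and IV pump protons across the inner mitochondrial membrane, and complex V lets the protons flow back and makes ATP. White adipocytes use this chain to oxidise fuel and to supply ATP for the esterification of fatty acids. Part of the subunits of complexes I, III, IV and V are encoded by mitochondrial DNA. None of those 13 genes had a probe set of its own, and they are not analysed here. Cox7c, Ndufa13 and Uqcrc2 had only probe sets shared with another symbol and were left out.

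Values are log2 expression after RMA, a method that corrects the background, scales the arrays to each other and summarises the probes of a probe set. Where a gene had several probe sets, as 23 of the 85 had, the one with the highest mean over the 19 arrays was used. Array medians over the chip lay between 5.23 and 5.43. Averaged over all genes, PMA replicates 1 and 4 stood 0.127 and 0.091 above the control mean, whereas the other 2 PMA arrays stood at -0.008 and 0.022. On the first principal component PA replicates 2 and 4 stood apart, and on the second PMA replicates 1 and 4 did, and for several genes and counts values without them are given beside the result. Adipocyte markers averaged 11.26 to 11.40 per array over 10 genes and fibroblast markers 10.43 to 10.63 over 9 genes. The adipocyte average was 11.35 to 11.40 in SA and OA arrays, against 11.29 to 11.30 in control arrays. The fibroblast average was 10.53 to 10.63 in PMA arrays, against 10.44 to 10.48 in control arrays. The other groups overlapped with control in these averages, which were not tested. Markers of macrophages (6 genes, 4.53 to 4.82), endothelium (5 genes, 4.63 to 4.89) and muscle (6 genes, 5.26 to 5.59) averaged below or close to the array medians. Of these 36 marker genes 1 passed the test below in any acid, the fibroblast collagen Col1a1, which was 0.26 higher in PMA cells (adjusted p = 0.0463) and missed the threshold in 17 of 25 alternative analyses. Because whole cultures were measured, less RNA per cell and fewer cells of a type cannot be told apart.

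None of the 85 genes passed the test in any acid. The test was limma's moderated test, two-sided, with Benjamini-Hochberg adjustment over all 18820 genes of a comparison and a threshold of 0.05. Over all genes 0% passed in PA cells, 0.266% in PMA cells, 0.165% in SA cells and 0.861% in OA cells, each against control, and 0.197% passed for the mean of the 4 acids. At an unadjusted p under 0.05 the mean of the 4 acids had 4 genes higher and 12 lower, or 9.93% and 2.74% over all genes. The smallest adjusted p among the 85 was 0.228 for PA (Atp5h), 0.0551 for PMA (Ndufaf5), 0.316 for SA (Ndufaf1) and 0.117 for OA (Uqcrh). At an unadjusted p under 0.05, 1 gene was higher and 3 lower in PA cells (all genes 10.9% and 4.55%), 5 higher and 11 lower in PMA cells (14.5% and 1.49%), 3 higher and 12 lower in SA cells (5.64% and 2.89%), and 3 higher and 16 lower in OA cells (7.99% and 3.65%). All 4 comparisons use the same 4 control arrays, so their values are given side by side and a likeness between them is no separate evidence.

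The differences were small, and the arrays bounded them closely. The 95% interval of the difference from control stayed within ±0.32 on the log2 scale, a 1.25-fold change either way, for 81 of 85 genes in PA cells, 76 in PMA cells, 77 in SA cells and 70 in OA cells. Within ±0.5, a 1.41-fold change, lay 84, 83, 85 and 84 genes in the same order of acids. The widest bounds below 0 were -0.57 for Ndufb3 in PA cells, and -0.52 in PMA cells and -0.54 in OA cells for Ndufaf2. The widest above 0 was 0.46 for Ndufaf1 in OA cells. The median standard error of a difference was 0.061 for PA, PMA and SA and 0.066 for OA, which had 3 arrays.

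**Figure D1:**
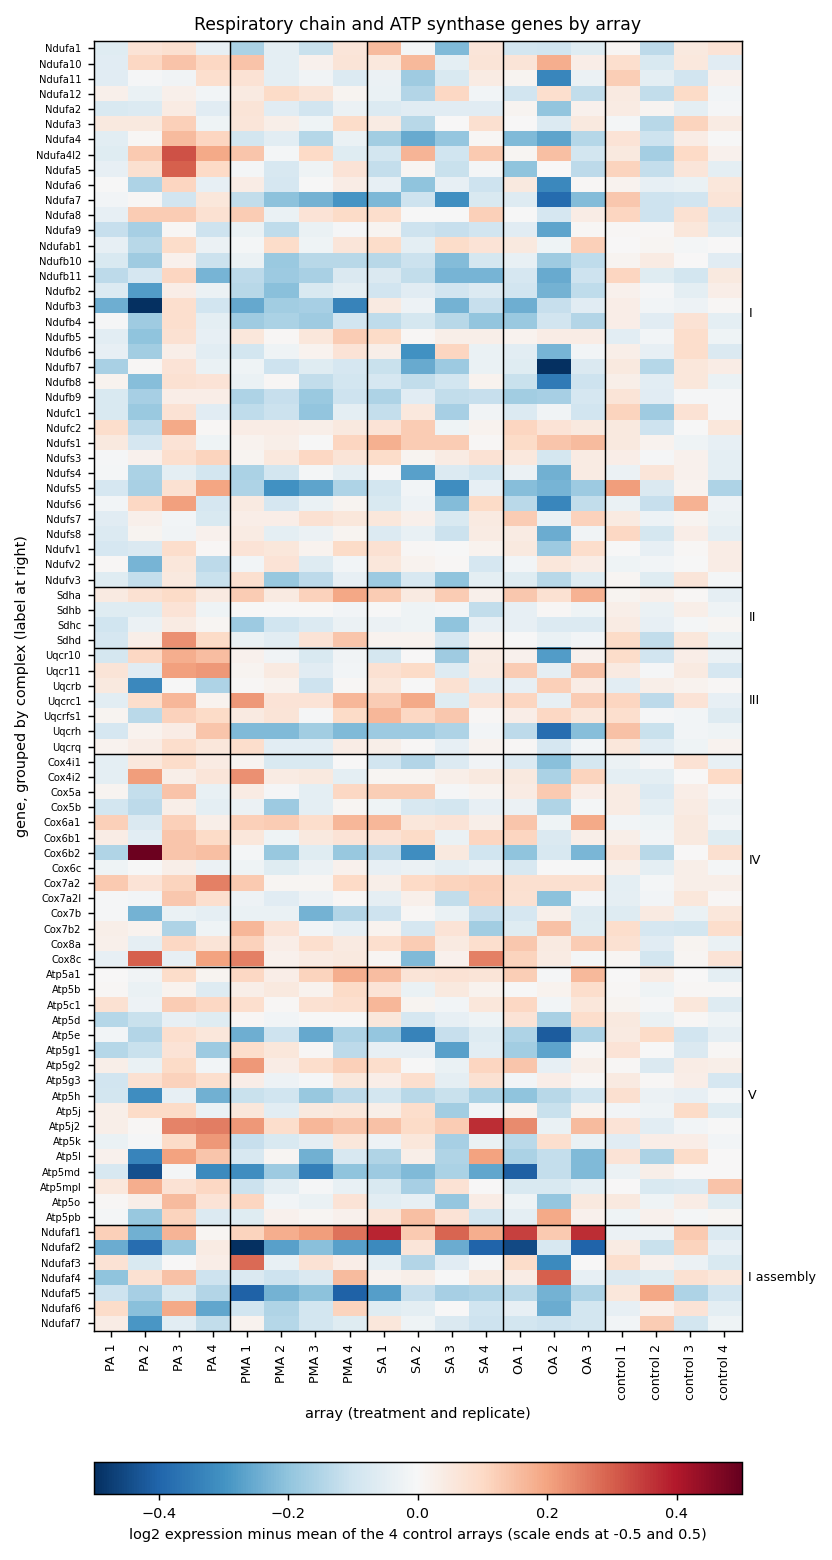
Each row is 1 of the 85 genes, grouped by complex, and each column is 1 of the 19 arrays, with the control arrays at the right. The colour gives the log2 difference of the array from the mean of the 4 control arrays. Most cells of the map are pale. Values beyond the ends of the colour scale take its end colours, among them Ndufb3 in PA replicate 2 and Ndufb7 in OA replicate 2.

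The median difference of the 85 genes from control was -0.002 in PA cells, -0.006 in PMA cells, -0.039 in SA cells and -0.045 in OA cells, beside 0.030, 0.061, 0.015 and 0.016 over all genes. Above 0 stood 42, 36, 32 and 30 of the 85 in PA, PMA, SA and OA cells, beside 61.7%, 78.5%, 58.1% and 56.7% of all genes. The 36 genes counted with complex I by symbol, Ndufa4 among them, had medians of -0.020, -0.014, -0.057 and -0.086 in the same order. Of these 36 genes 23, 24, 26 and 27 stood below 0. Complex III had medians of 0.048, -0.004, 0.022 and 0.038, and complex IV 0.042, 0.028, 0.003 and 0.003. Complex V stood at 0.021, 0.008, -0.020 and -0.027, and the 4 genes of complex II at 0.024, 0.012, -0.024 and -0.018. These medians describe the lists and were not tested. Most of the 85 genes read far above the array medians and are thus brighter than most of all genes. Here and elsewhere the members and all genes were not matched for brightness, and the influence of brightness was not tested.

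Averaged over its 36 genes, complex I stood at -0.045, -0.138 and -0.036 in the 3 OA arrays and at -0.027, -0.058, -0.090 and -0.017 in the SA arrays, relative to the control mean. In PMA arrays the average was -0.023, -0.062, -0.055 and -0.019, in PA arrays -0.048, -0.095, 0.078 and -0.009, and in control arrays 0.044, -0.060, 0.026 and -0.011. Every acid thus overlapped the control arrays, and OA replicate 2 and PA replicate 2 were the lowest of the 19. Control replicate 2 stood lower than most of the PMA, SA and OA arrays.

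**Figure D2:**
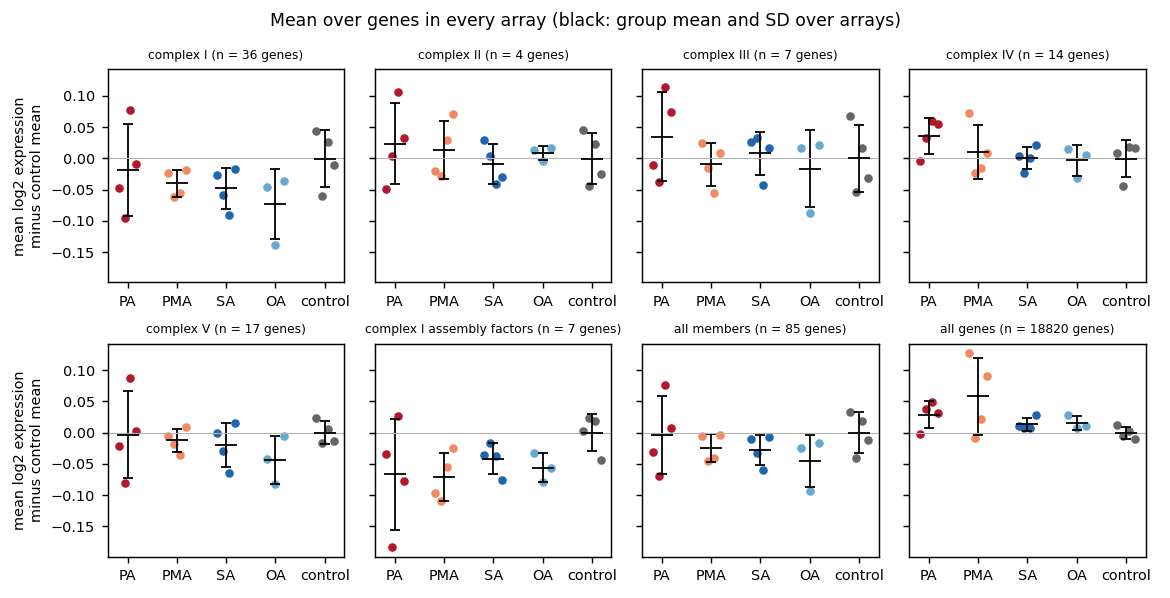
Each panel is 1 complex, the complex I assembly factors, all 85 genes together or all 18820 genes. Each point is 1 array, the mean over the genes of that panel of the log2 difference from the control mean. Black bars give the group mean and SD over arrays. For complex I the control arrays span -0.060 to 0.044 and overlap with every acid.

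**Figure D3:**
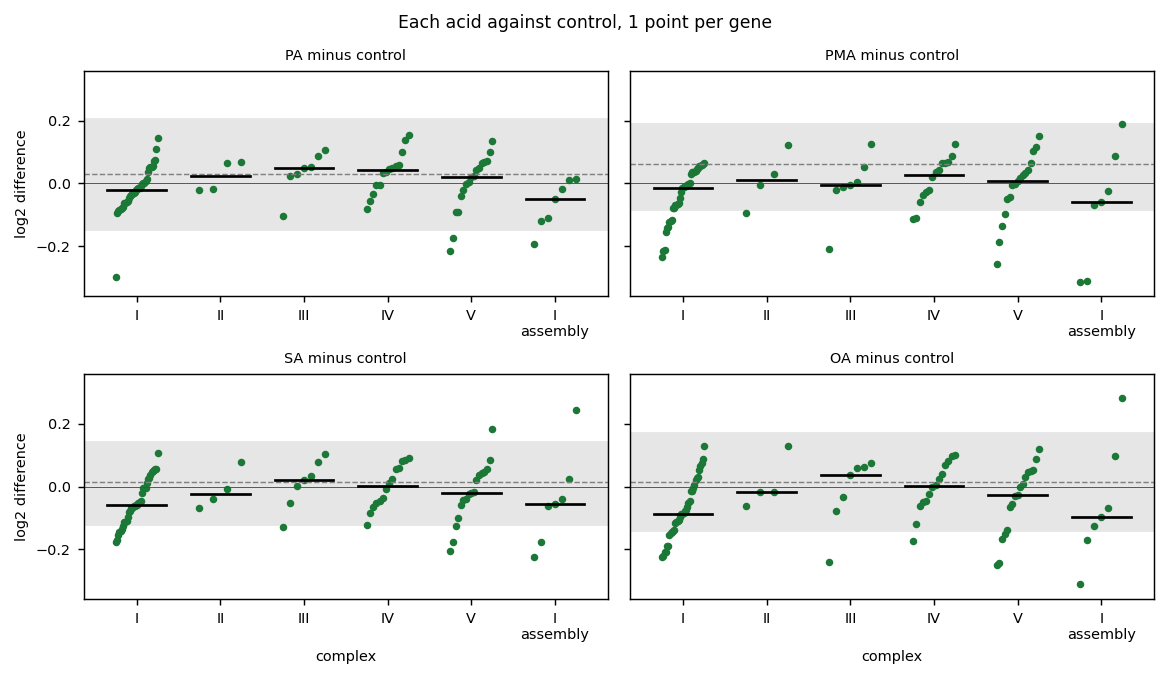
Log2 differences of each acid from control, 1 point per gene, by complex, with black bars at the median of a complex. The grey band runs from the 5th to the 95th percentile of all 18820 genes and the dashed line marks their median. Complex I in OA cells lies lowest of the 5 complexes, with a median of -0.086.

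Complex I, the NADH dehydrogenase, carries its electron path on core subunits and surrounds them with accessory subunits. The core subunits stood close to control. Ndufv1, which holds the flavin that takes up the electrons of NADH, differed by -0.01 in PA cells, 0.06 in PMA cells, 0.02 in SA cells and -0.01 in OA cells. Ndufs3, Ndufs7 and Ndufs8, core subunits near the site where ubiquinone is reduced, lay between -0.08 and 0.07 in all acids. Ndufs1, the large iron-sulfur core subunit, was the exception in size. Ndufs1 measured 9.63, 9.67 and 9.69 in OA cells and 9.71, 9.66, 9.66 and 9.54 in SA cells, against 9.58, 9.55, 9.51 and 9.49 in control cells. The OA arrays lay above all control arrays while SA replicate 4 lay among them, and the difference of 0.13 ± 0.05 (SE) in OA cells did not pass (adjusted p = 0.329).

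Of the 36 complex I genes 5, 5 and 9 had arrays wholly below control in PMA, SA and OA cells, beside 1.30%, 2.50% and 4.63% of all genes. Several were accessory subunits of the B group, which sits in the membrane arm. Others were not, such as Ndufa7 in PMA cells and Ndufs5 in PMA and OA cells. Within the B group, Ndufb5 stood above control, at 0.06, 0.04 and 0.03 in PMA, SA and OA cells. Ndufb4 measured 11.57, 11.59, 11.57 and 11.65 in PMA cells, 11.62, 11.66, 11.61 and 11.55 in SA cells and 11.56, 11.65 and 11.60 in OA cells, against 11.78, 11.69, 11.82 and 11.70 in control cells. On this probe set, the brighter of 2, these 3 groups did not overlap with control, whereas PA cells, at 11.74, 11.57, 11.83 and 11.70, did. The differences were -0.15 in PMA cells (adjusted p = 0.186), -0.14 in SA cells (0.419) and -0.14 in OA cells (0.312). Ndufb9 gave a like picture, with -0.14 in PMA cells (adjusted p = 0.197), -0.11 in SA cells (0.536) and -0.14 in OA cells (0.286), and its arrays too did not overlap with control. For Ndufb9, SA replicate 2 and control replicate 2 were equal to the second decimal. The second probe set of Ndufb4, with a mean of 11.48, gave -0.12 in PMA cells, -0.09 in SA cells and -0.13 in OA cells. None of these passed. There PMA replicate 4 (11.48), SA replicate 2 (11.47) and OA replicate 2 (11.47) lay above control replicate 2 (11.46). All 3 groups thus overlapped with control on the second probe set. Ndufb3 stood lowest of complex I in PA cells, at -0.30 ± 0.13 (adjusted p = 0.294). PA replicate 2 read 6.82 for Ndufb3 and the other PA arrays 7.50, 7.83 and 7.65, against 7.78, 7.73, 7.72 and 7.75 in control cells. Without PA replicate 2 the difference of Ndufb3 was -0.09.

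Ndufa4 is named after complex I and counted with it here, but is now placed with complex IV. It read 9.52, 9.48 and 9.60 in OA cells and 9.57, 9.49, 9.55 and 9.75 in SA cells, against 9.81, 9.64, 9.78 and 9.74 in control cells. In PMA cells Ndufa4 read 9.65, 9.69, 9.60 and 9.71 and in PA cells 9.69, 9.75, 9.90 and 9.85. Only the OA arrays lay below all control arrays, by -0.21 ± 0.07 on average (adjusted p = 0.169). Ndufa7, an accessory subunit, was lower by a like amount in PMA cells (-0.22, adjusted p = 0.160) and OA cells (-0.22, adjusted p = 0.217), and stood at -0.18 in SA cells (adjusted p = 0.450) and -0.01 in PA cells. Ndufa4l2, a relative of Ndufa4 induced by low oxygen, had a dim probe set, at 5.21 to 5.70 in the 19 arrays, and differed by 0.02 to 0.14.

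Of the assembly factors, Ndufaf5, which modifies the core subunit Ndufs7, came closest to the threshold. Its arrays read 5.02, 5.19, 5.22 and 5.02 in PMA cells, against 5.48, 5.62, 5.27 and 5.33 in control cells. All PMA arrays lay below all control arrays, the difference was -0.31 ± 0.07 (95% interval -0.45 to -0.17) and the adjusted p was 0.0551. In PA cells Ndufaf5 read 5.32, 5.26, 5.35 and 5.28, in SA cells 5.15, 5.31, 5.26 and 5.27, and in OA cells 5.29, 5.19 and 5.27, with differences of -0.12, -0.18 and -0.17 (adjusted p = 0.391, 0.416 and 0.348). All these values are close to the array medians, so the probe set is dim. Ndufaf5 passed in PMA cells in 6 of the alternative analyses, with the dimmest 1 in 3 of all genes left out (0.0329), after cyclic loess between arrays (0.0476), with a trended robust spread (0.0441), and without control replicate 3 (0.0342), PA replicate 2 (0.0395) or PA replicates 2 and 4 (0.0444). Over all alternatives its adjusted p ran between 0.0329 and 0.707.

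The promoter of Ndufaf5 is shown because it holds a binding motif of NRF1, a factor known to drive many respiratory genes. The window is chr2:140170396-140170695 on the plus strand of GRCm38.p6 (RefSeq), with the motif in capitals, found on both strands (GCGCATGCG and its reverse CGCATGCGC), at positions 17 and 18 counted from the annotated start as 1.
Ndufaf5: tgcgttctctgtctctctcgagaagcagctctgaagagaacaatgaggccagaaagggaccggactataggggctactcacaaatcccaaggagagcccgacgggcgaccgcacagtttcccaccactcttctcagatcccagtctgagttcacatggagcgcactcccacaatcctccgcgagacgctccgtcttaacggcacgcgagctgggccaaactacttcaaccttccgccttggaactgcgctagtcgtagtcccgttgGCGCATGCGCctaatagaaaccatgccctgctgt

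Ndufaf2 was the other assembly factor with low values, at -0.31 ± 0.10 in PMA cells (adjusted p = 0.150) and -0.31 ± 0.11 in OA cells (adjusted p = 0.224), beside -0.19 in PA cells (0.355) and -0.23 in SA cells (0.523). It read 6.27, 6.50, 6.56 and 6.50 in PMA cells and 6.32, 6.69 and 6.37 in OA cells, against 6.81, 6.66, 6.88 and 6.73 in control cells, so that only the PMA arrays lay wholly below control. Ndufaf1, which acts early in the assembly of the membrane arm, stood on the other side of control. Its arrays read 8.87, 8.66 and 8.90 in OA cells and 8.91, 8.66, 8.82 and 8.71 in SA cells, against 8.50, 8.50, 8.66 and 8.46 in control cells. The differences were 0.28 ± 0.09 in OA cells (adjusted p = 0.155) and 0.24 ± 0.08 in SA cells (adjusted p = 0.316). PMA cells stood at 0.19, the highest of the 85 genes in that acid, and PA cells at 0.01, or 0.15 without PA replicates 2 and 4.

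Complex II, the succinate dehydrogenase, has 4 subunits, all nuclear. Sdha, the flavoprotein that oxidises succinate, was the gene whose arrays lay above control in every acid. Sdha read 10.71, 10.74, 10.76 and 10.71 in PA cells, 10.79, 10.71, 10.78 and 10.86 in PMA cells, 10.79, 10.71, 10.79 and 10.69 in SA cells and 10.80, 10.74 and 10.84 in OA cells, against 10.68, 10.69, 10.67 and 10.62 in control cells. SA replicate 4 and control replicate 2 were equal to the second decimal, and the differences were 0.07, 0.12, 0.08 and 0.13 for PA, PMA, SA and OA, with adjusted p of 0.477, 0.215, 0.704 and 0.277. Sdhb, the iron-sulfur subunit, lay between -0.04 and -0.01. The membrane anchors Sdhc and Sdhd lay between -0.09 and 0.07.

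In complex III the gene with the largest differences was Uqcrh, the hinge protein that helps cytochrome c to bind. Uqcrh read 10.66, 10.76, 10.78 and 10.88 in PA cells, 10.52, 10.52, 10.57 and 10.52 in PMA cells, 10.56, 10.56, 10.59 and 10.73 in SA cells and 10.61, 10.36 and 10.53 in OA cells, against 10.89, 10.63, 10.73 and 10.72 in control cells. The PMA and OA arrays lay below all control arrays, while the PA and SA arrays overlapped with them. The difference from control was -0.24 ± 0.07 in OA cells (95% interval -0.39 to -0.10, adjusted p = 0.117), -0.21 ± 0.06 in PMA cells (adjusted p = 0.139), -0.13 ± 0.06 in SA cells (adjusted p = 0.620) and 0.03 ± 0.06 in PA cells (adjusted p = 0.836). Its second probe set was much dimmer, with a mean of 6.26, and gave -0.16 in OA cells and -0.17 in PMA cells, neither of which passed. On that probe set the PMA arrays, at 6.43, 5.86, 6.01 and 6.38, overlapped with control, at 6.26, 6.42, 6.44 and 6.25. The OA arrays, at 6.22, 6.18 and 6.15, lay below control. With a trended robust spread Uqcrh passed in OA cells (adjusted p = 0.0340), and with array quality weights likewise (0.0241), within a range of 0.0241 to 0.392 over all alternatives.

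The promoter of Uqcrh lies at chr4:116075021-116075320 on the minus strand of GRCm38.p6 (RefSeq) and is shown because Uqcrh came closest to the threshold among the comparisons between acids. Capitals mark an ETS motif (CTTCCGG, the reverse of CCGGAAG) at position -10 from the annotated start and a CCAAT box at -52.
Uqcrh: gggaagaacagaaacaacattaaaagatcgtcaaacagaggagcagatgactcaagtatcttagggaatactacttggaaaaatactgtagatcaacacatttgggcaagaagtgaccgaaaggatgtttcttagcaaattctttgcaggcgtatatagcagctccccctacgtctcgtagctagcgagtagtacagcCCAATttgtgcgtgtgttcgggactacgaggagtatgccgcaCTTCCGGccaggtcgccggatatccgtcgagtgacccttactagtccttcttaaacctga

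The other subunits of complex III stood nearer to control. Uqcrc1, a core subunit, lay between 0.05 and 0.13, and Uqcrfs1, the Rieske iron-sulfur protein that passes electrons towards cytochrome c, between 0.02 and 0.10. The small subunits Uqcrb, Uqcrq, Uqcr10 and Uqcr11 lay between -0.10 and 0.11. The lowest of these, Uqcrb in PA cells, stood at 0.03 without PA replicates 2 and 4. For Uqcr10 the choice of probe set mattered: the brighter one gave 0.09 in PA cells, -0.02 in PMA cells, -0.05 in SA cells and -0.08 in OA cells, and the dimmer one -0.23, -0.23, -0.26 and -0.29, none of which passed.

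In complex IV, the cytochrome c oxidase, most differences were small. Cox6c, a small membrane subunit, kept within 12.16 to 12.27 in all 19 arrays, and its differences lay between -0.04 and -0.01. Cox5a and Cox5b, subunits on the matrix side, lay between -0.06 and 0.07. Cox4i1, the common form of a subunit that takes part in regulating the enzyme by ATP, read 10.32, 10.18 and 10.30 in OA cells, against 10.36, 10.38, 10.46 and 10.35 in control cells. The OA arrays lay below all control arrays, by -0.12 on average (adjusted p = 0.399). Cox7a2, the form of subunit 7a found in most tissues, read 10.65, 10.59, 10.63 and 10.77 in PA cells, against 10.47, 10.51, 10.55 and 10.55 in control cells, a difference of 0.14 ± 0.05 (adjusted p = 0.231). The arrays of SA and OA cells also did not overlap with control for Cox7a2, at differences of 0.09 and 0.08. SA replicate 1 and control replicates 3 and 4 were equal to the second decimal for Cox7a2. Cox6a1 stood at 0.12 in PMA cells (adjusted p = 0.274), with all PMA arrays above control. Its second, dimmer probe set, with a mean of 7.68, gave 0.01 in PMA cells, and the PMA arrays overlapped with control there.

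Several complex IV genes known as tissue-restricted forms were dim here. Cox7b2 read 3.11 to 3.45, Cox6b2 4.55 to 5.35, Cox4i2 5.38 to 5.77 and Cox8c 5.44 to 5.96 over the 19 arrays. Cox6b2, a form of subunit 6b known from testis, read 5.35 in PA replicate 2 and 4.71, 5.00 and 5.01 in the other PA arrays, against 4.92, 4.72, 4.86 and 4.94 in control cells. Its difference in PA cells was 0.16 ± 0.10 (adjusted p = 0.428), and -0.004 without PA replicates 2 and 4.

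The ATP synthase has a catalytic head, a rotating stalk and ring, and a stationary peripheral stalk. The head subunits stood close to control. Atp5b, the catalytic beta subunit, differed by -0.02 to 0.04, and Atp5a1, the alpha subunit, by 0.02 in PA cells, 0.10 in PMA cells, 0.09 in SA cells and 0.09 in OA cells. Atp5c1, the gamma subunit of the central stalk, lay between 0.05 and 0.07. Atp5e, the small epsilon subunit at the foot of that stalk, stood lower in 3 acids, at -0.24 ± 0.08 in OA cells (adjusted p = 0.179), -0.19 in PMA cells (0.214) and -0.18 in SA cells (0.443). In PA cells Atp5e read 8.56, 8.43, 8.66 and 8.63, against 8.62, 8.67, 8.48 and 8.53 in control cells, and overlapped. The genes of the ring subunit c, Atp5g1, Atp5g2 and Atp5g3, which encode the same mature protein, lay between -0.14 and 0.12.

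Atp5h, which encodes subunit d of the peripheral stalk, was the gene whose arrays lay below control in every acid on its brightest probe set. Atp5h read 10.64, 10.42, 10.69 and 10.49 in PA cells, 10.62, 10.63, 10.54 and 10.60 in PMA cells, 10.64, 10.59, 10.62 and 10.57 in SA cells and 10.53, 10.59 and 10.63 in OA cells, against 10.81, 10.70, 10.69 and 10.72 in control cells. PA replicate 3 and control replicate 3 were equal to the second decimal. The differences were -0.17 ± 0.06 in PA cells, -0.14 ± 0.06 in PMA cells, -0.13 ± 0.06 in SA cells and -0.15 ± 0.06 in OA cells, with adjusted p of 0.228, 0.245, 0.513 and 0.295.

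Atp5h has 4 probe sets, and only the dimmest of them (10427459) passed when every probe set was tested by itself with adjustment over all of them. The others differed by less, by -0.15 to -0.13 in SA cells and -0.18 to -0.15 in OA cells. On probe sets 10359297 and 10542520 the PA and SA arrays overlapped with control. On 10359297 PA replicate 1 (10.23) and SA replicate 1 (10.21) lay above control replicate 3 (10.20). On 10542520 PA replicate 1 (9.54) and SA replicate 1 (9.51) lay above control replicate 3 (9.50). The dimmest probe set was chosen after its values were seen. It read 9.40, 9.35, 9.38 and 9.17 in SA cells and 9.29, 9.37 and 9.32 in OA cells, against 9.79, 9.69, 9.61 and 9.67 in control cells. The SA and OA arrays lay below all control arrays, and this probe set fell by 0.36 on the log2 scale in SA cells (adjusted p = 0.0300) and by 0.36 in OA cells (adjusted p = 0.0202). For the mean of the 4 acids the difference was -0.33 (adjusted p = 0.00729), and this call was lost without control replicate 1 (0.0729) or 4 (0.0558). In PMA cells it read 9.31, 9.53, 9.45 and 9.31 (difference -0.29, adjusted p = 0.0705), and in PA cells 9.43, 9.22, 9.50 and 9.36 (difference -0.31, adjusted p = 0.165). The SA call was lost without any of the 4 SA arrays or without control replicate 1, 2 or 4 (adjusted p = 0.0661 to 0.139), and the OA call without any OA array or without control replicate 1 or 4 (adjusted p = 0.0554 to 0.0870). Whether this probe set reads Atp5h alone or a near-identical copy as well was not tested.

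The promoter of Atp5h, at chr11:115419870-115420169 on the minus strand of GRCm38.p6 (RefSeq), is shown as that of the member with a probe set past the threshold. Capitals mark an ETS motif (CTTCCGG) at position -38 from the annotated start and CCAAT boxes (ATTGG on this strand) at -98 and -55.
Atp5h: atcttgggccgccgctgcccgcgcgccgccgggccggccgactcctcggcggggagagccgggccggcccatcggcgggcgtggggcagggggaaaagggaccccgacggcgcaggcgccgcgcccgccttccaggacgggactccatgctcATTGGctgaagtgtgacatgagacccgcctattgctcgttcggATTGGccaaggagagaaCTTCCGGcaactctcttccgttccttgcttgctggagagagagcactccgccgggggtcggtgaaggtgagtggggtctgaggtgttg

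Atp5md, a small membrane subunit that links ATP synthases into dimers, stood lower by the largest amounts among the subunits of complex V. Atp5md read 11.85, 11.49, 11.92 and 11.61 in PA cells, 11.62, 11.75, 11.59 and 11.73 in PMA cells, 11.75, 11.71, 11.77 and 11.67 in SA cells and 11.52, 11.81 and 11.71 in OA cells, against 11.90, 11.96, 11.93 and 11.93 in control cells. The control arrays lay close together, the PMA, SA and OA arrays all lay below them, and PA replicate 3 lay among them. The differences were -0.22 ± 0.08 in PA cells, -0.26 ± 0.08 in PMA cells, -0.21 ± 0.08 in SA cells and -0.25 ± 0.08 in OA cells, with adjusted p of 0.239, 0.133, 0.406 and 0.202. Its 3 probe sets differed from control by -0.29 to -0.21. Atp5md passed in PMA cells with array quality weights (adjusted p = 0.0329) and without PA replicates 2 and 4 (0.0455), and in OA cells with the weights (0.0183), within ranges of 0.0329 to 0.744 and 0.0183 to 0.595. The values in PA cells depended on PA replicates 2 and 4, without which Atp5md stood at -0.05 and Atp5h at -0.07.

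The promoter of Atp5md, at chr19:47090598-47090897 on the minus strand of GRCm38.p6 (RefSeq), is shown beside that of Atp5h, the other ATP synthase gene with low values in every acid. Capitals mark an SP1 motif (GGGCGG) at position -80 from the annotated start, a CCAAT box at -58 and an ETS motif (CTTCCGG) at 3.
Atp5md: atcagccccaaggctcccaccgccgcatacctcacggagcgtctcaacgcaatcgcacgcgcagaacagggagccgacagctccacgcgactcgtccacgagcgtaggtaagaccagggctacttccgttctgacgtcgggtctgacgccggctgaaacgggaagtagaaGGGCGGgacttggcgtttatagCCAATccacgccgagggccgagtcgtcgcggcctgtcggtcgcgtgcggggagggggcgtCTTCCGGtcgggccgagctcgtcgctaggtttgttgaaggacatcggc

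**Figure D4:**
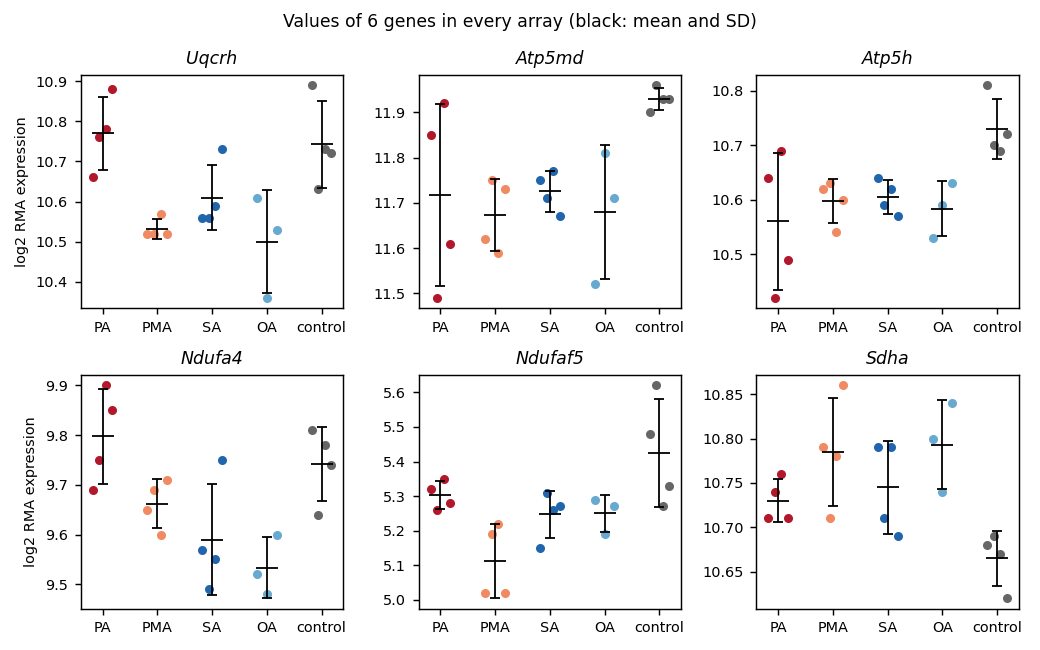
Log2 expression of 6 genes in every array, with the axis of each panel set to its own range, so panels differ in scale and do not start at 0. Black bars give the mean and SD of a group. Atp5md and Atp5h lie low in all acids, Sdha lies high in all acids, and Uqcrh lies low in PMA and OA cells.

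Groups that did not overlap array by array were counted for all 85 genes. In PA cells 2 genes lay wholly above control (Sdha and Cox7a2) and 2 wholly below (Atp5d and Atp5h), or 2.35% each way, beside 3.90% and 1.65% of all genes. In PMA cells 5 lay above and 11 below, or 5.88% and 12.9%, beside 9.29% and 1.30% of all genes. In SA cells 4 lay above and 7 below, or 4.71% and 8.24%, beside 4.88% and 2.50%. In OA cells 3 lay above and 14 below, or 3.53% and 16.5%, beside 9.72% and 4.63%. On the brightest probe sets the genes below control in PMA, SA and OA cells alike were Ndufb4, Ndufb9, Atp5h and Atp5md. Other probe sets of Ndufb4 and Atp5h overlapped with control, as given above. These counts have no test, since the genes are not independent of each other and the acids share their controls. PMA replicates 1 and 4 stood high over all genes, and without them 19 genes lay below control in PMA cells, beside 7.32% of all genes. Without PA replicates 2 and 4, 7 genes lay above control in PA cells, beside 10% of all genes. Single arrays moved the counts too: without PA replicate 3, 10 genes lay below control in PA cells (5.14% of all genes), without SA replicate 4, 13 lay below in SA cells (4.42%), and without OA replicate 2, 15 lay above in OA cells (17.9%).

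The promoters of the members were searched for 6 motifs on both strands, in windows of 250 bases before to 50 bases after the annotated start (RefSeq, GRCm38.p6). Of the 85 genes 71 had a window, with 76 windows in all, and all 32851 windows of the table served for comparison. The NRF1 motif GCGCATGCG was found in 13.2% of the members' windows and 1.75% of all windows. The corresponding shares were 23.7% and 8.86% for the ETS motif CCGGAAG, 9.21% and 1.40% for the YY1 motif AAGATGGCG, and 2.63% and 0.423% for the ERR motif TCAAGGTCA. The CCAAT box was found in 42.1% and 37.4%, and the SP1 motif GGGCGG in 44.7% and 35.7%. Matches of different motifs overlapped in 1 window of the members, and matches of the same motif, such as the NRF1 motif read on both strands, in 8. The windows with the NRF1 motif belonged to Ndufa8, Ndufa11, Uqcrc1, Uqcr11, Cox6a1, Atp5g2, Atp5k, Atp5l, Ndufaf4 and Ndufaf5. A match describes the letters of a window and says nothing of binding in these cells.

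The acids were then compared with each other in 4 pairs at the same dose and time, to ask whether the double bond or the 2 additional carbons went with a difference in these genes. None of the 85 genes passed in any pair. Over all genes 0.962% passed for PA against PMA, 0.0319% for SA against OA, 0.143% for PA against SA and 0.0531% for PMA against OA. The interaction, which asks whether the double bond made a different difference at 16 and at 18 carbons, also gave 0 of the 85, beside 0.00531% of all genes. At an unadjusted p under 0.05 the interaction had 0 of the 85 genes, beside 1.04% of all genes higher and 4.20% lower.

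Between PA and PMA, which differ by the double bond, the median difference of the 85 genes was 0.009, beside -0.029 over all genes. At an unadjusted p under 0.05, 9 genes were higher and 2 lower in PA cells, beside 3.13% and 14.5% of all genes. Uqcrh came nearest to the threshold, at 0.24 ± 0.06 higher in PA than in PMA cells (95% interval 0.10 to 0.37, adjusted p = 0.0675), and its arrays did not overlap between the acids. It passed in 4 alternative analyses, with the dimmest 1 in 3 of all genes left out (0.0429), after cyclic loess (0.0345), with a trended robust spread (0.0223) and without PA replicate 1 (0.0385), within a range of 0.0223 to 0.479. Ndufa7, Ndufaf5 and Atp5mpl were the other genes whose PA arrays all lay above the PMA arrays, at differences of 0.21, 0.19 and 0.15 (adjusted p = 0.142, 0.152 and 0.182). Ndufs7 and Atp5d lay wholly below, at -0.08 and -0.09. These 4 higher and 2 lower genes make 4.71% and 2.35% of the members, beside 0.919% and 7.09% of all genes. The 95% interval lay within ±0.32 for 76 and within ±0.5 for all 85 genes. Cox6b2, the dim gene with a high value in PA replicate 2, had the largest difference, 0.27 ± 0.10 (adjusted p = 0.158). It passed without PA replicate 1 (difference 0.37, adjusted p = 0.0363, range over alternatives 0.0363 to 0.792), and stood at 0.16 without PA replicate 2 and 0.11 without PA replicates 2 and 4.

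SA and OA, which differ by the double bond at 18 carbons, were the closest pair. The differences ran from -0.07 for Ndufaf4 to 0.15 for Atp5l, every adjusted p was 1, and 0 genes had an unadjusted p under 0.05, beside 1.23% of all genes higher and 1.16% lower. The 95% interval lay within ±0.32 for 83 of 85 genes and within ±0.5 for all, and the outermost bounds were -0.25 (Ndufaf4) and 0.36 (Atp5l). No gene had SA arrays wholly above or below the OA arrays, beside 2.13% and 2.50% of all genes.

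PA and SA, both saturated and 2 carbons apart, differed most in the dim Cox6b2 (0.28 ± 0.10, adjusted p = 0.212), in Ndufaf1 (-0.23 ± 0.08, adjusted p = 0.212), in Ndufb3 (-0.22 ± 0.13, adjusted p = 0.416) and in Ndufa4 (0.21 ± 0.06, adjusted p = 0.157). Without PA replicate 1, Ndufa4 (0.0477, range over alternatives 0.0477 to 0.731) and Cox6b2 (0.0335, range 0.0335 to 1) passed. Without PA replicate 2 the difference was -0.01 for Ndufb3, 0.17 for Cox6b2 and -0.14 for Ndufaf1. At an unadjusted p under 0.05, 8 genes were higher and 2 lower in PA cells, beside 8.47% and 7.35% of all genes. In no gene did the arrays of PA and SA cells lie apart, beside 2.73% of all genes higher and 2.57% lower. PMA and OA, both with 1 double bond, differed by -0.14 (Ndufaf5) to 0.18 (Ndufs6), with 1 gene higher and 0 lower in PMA cells at an unadjusted p under 0.05, beside 7.50% and 1.11% of all genes. Ndufs6 lay wholly above and Ndufc2 wholly below, 1.18% each, beside 6.98% and 1.92% of all genes. The interval lay within ±0.32 for 80 of 85 genes for PA against SA and 81 for PMA against OA.

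**Figure D5:**
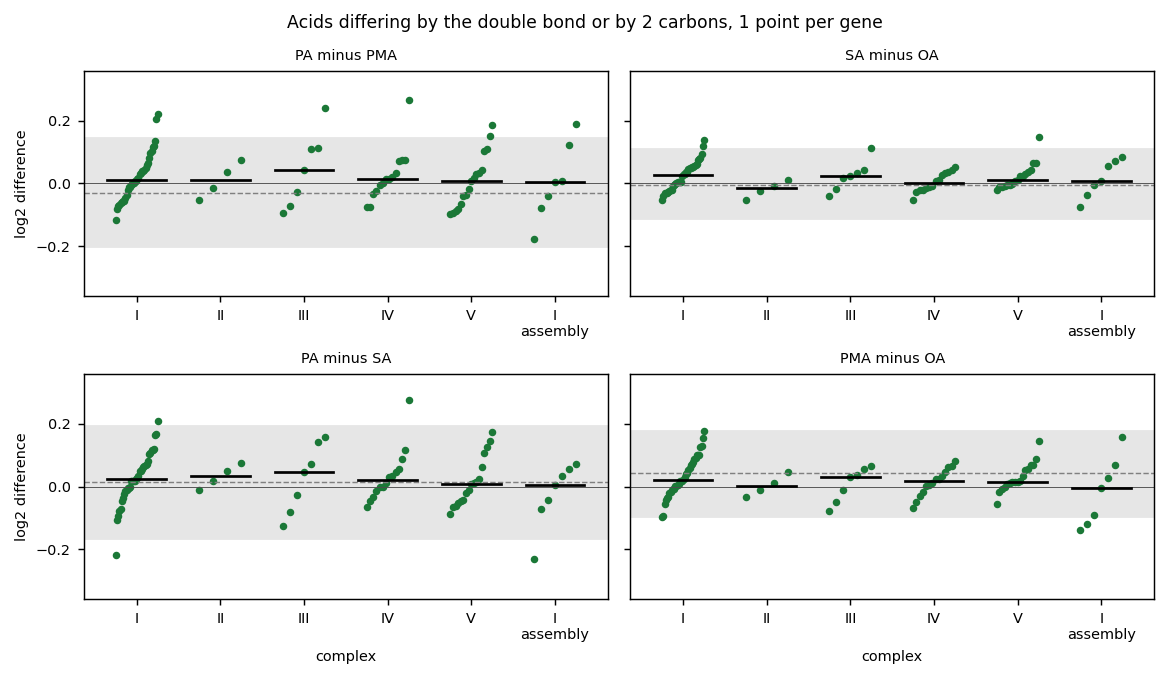
Log2 differences between acids that differ by the double bond (upper panels) or by 2 carbons (lower panels), 1 point per gene, by complex, with the first-named acid on top of the difference. Black bars mark medians, the grey band the 5th to 95th percentile of all genes and the dashed line their median. The points of SA minus OA lie closest together, between -0.07 and 0.15.

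Genes around the chain were read from lists of the same pathway. Of Cyc1, Cycs and Atpif1, which the name pattern does not reach, 0 of 3 passed. Atpif1, the inhibitor of the ATP synthase, had the largest differences, -0.24 ± 0.07 in SA cells (adjusted p = 0.267) and -0.24 ± 0.08 in OA cells (adjusted p = 0.207). Of 34 other assembly factors, 13 regulators of mitochondrial biogenesis, 6 genes of electron entry into ubiquinone and 12 of the tricarboxylic acid cycle, 0 passed in any acid against control. Surf1, an assembly factor of complex IV, stood at -0.25 in SA cells (adjusted p = 0.119) and -0.22 in PA cells (0.204), and Uqcc2, an assembly factor of complex III, at -0.32 in OA cells (0.110). Ppargc1a, the coactivator PGC-1alpha known to drive mitochondrial biogenesis, stood at -0.17 in PA cells (adjusted p = 0.244) and 0.26 lower in PA than in PMA cells (difference -0.26, adjusted p = 0.0529). Cs, citrate synthase, stood at 0.16 in PMA cells, 0.16 in SA cells and 0.17 in OA cells (adjusted p = 0.145, 0.268 and 0.190).

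Cox6a2, Cox7a1 and Cox8b, forms of complex IV subunits known from muscle and brown fat, were left out by the name rule. Of these 3, Cox6a2 fell in SA and OA cells. Cox6a2 read 7.06, 7.20, 6.93 and 7.02 in SA cells and 7.22, 7.02 and 6.97 in OA cells, against 7.48, 7.45, 7.43 and 7.57 in control cells. The difference was -0.43 ± 0.09 in SA cells (adjusted p = 0.0483) and -0.41 ± 0.09 in OA cells (adjusted p = 0.0410), while PA cells stood at -0.10 and PMA cells at -0.01. Its SA call was lost in 14 of 25 alternative analyses and its OA call in 11 of 25, with adjusted p up to 0.187 and 0.219. In both acids the call was lost whichever control array was left out.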

How the data were processed

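Affymetrix Mouse Gene 1.1 ST arrays, 19 in all, were hybridised with 100 ng of total RNA each, of an RNA integrity number above 9 per the labels' protocols. The deposited values are log2 expression per probe set. RMA, R 2.15.0 and affy 1.34.0 are named in the submitters' processing notes. Background correction, scaling and summarisation were taken as deposited, and scan files and detection calls were not used here. The table held 35556 probe sets with values from 1.97 to 13.29. In the platform annotation 21218 had 1 gene symbol, 1881 had several and 12457 were not named. The number of arrays limits the precision.

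Each of 18820 symbols was represented by its brightest single-symbol probe set, judged by the mean of the 19 arrays, and dim genes were kept. The 5 groups entered limma 3.58.1 (R 4.3.3) together, as group means in lmFit and eBayes, and 10 contrasts were taken. Tests were two-sided with Benjamini-Hochberg adjustment over all genes of a contrast and a threshold of 0.05. Errors are standard errors and intervals are 95% intervals. The fit was tested on simulated data.

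The genes, the lists and the tests were chosen with earlier results of these data known. Genes are named where they had the smallest p of a complex in an acid, were the brightest or dimmest of a complex, or belong to the core and role lists, which gave 50 genes. Others are named for arrays that did not overlap, after their values were seen. Alternatives were leaving out the dimmest 1 in 3 of all genes, every probe set, probe sets averaged by gene, cyclic loess, a trended robust spread, array quality weights, only the groups compared, the replicate number as a block, and leaving out each array and the arrays that stand apart. Alternatives for counts of arrays that did not overlap, for Cox6a2, Col1a1 and the probe set of Atp5h were added after seeing the data. Array labels carry no batch or date, so no batch was tested.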

Additional observations from a re-analysis of the deposited data

Results flagged for a closer look

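Single arrays far from the rest of their group were looked for in the 232 groups of 4 arrays formed by the named genes and the means of the complexes, and 12 were found. Chance alone would mark about 1 in 20 such groups. No cause was tested.

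Uqcrh read 10.57 in PMA replicate 3, above 3 arrays within 10.52, and 10.73 in SA replicate 4, above the other SA arrays. In complex II, SA replicate 3 stood low for Sdhc (10.29) and Sdhd (9.12). Uqcrb stood low in PMA replicate 3 (11.47), and Cox8c, a dim gene, stood high in PMA replicate 1 (5.91). Among ATP synthase genes the arrays that stood apart were low for Atp5g1 in SA replicate 3 (10.83), Atp5g3 in PA replicate 1 (10.89), Atp5c1 in PMA replicate 2 (10.03) and Atp5b in control replicate 2 (12.07), and high for Atp5a1 in SA replicate 1 (11.03). The mean of complex IV was low in control replicate 2, at -0.044 relative to the control mean.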

How the results depend on the processing

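Calls and medians were recomputed under 29 alternatives. With each gene read from its brightest probe set or from their average, 0 of the 85 passed for PA, SA, the interaction, PMA against OA, and SA against either PA or OA under the alternatives that keep all arrays or leave out a pair. With every probe set tested, the dimmest probe set of Atp5h passed for SA, OA and the mean of the 4 acids. Shares of all genes that passed are in parentheses. For PMA against control the count became 1 with the dimmest 1 in 3 of all genes left out (1.59%), 2 after cyclic loess (Ndufaf5 and Ndufb10, 0.441%), 1 with a trended robust spread (1.13%), 1 with array quality weights (Atp5md, 1.67%) and 2 without PA replicates 2 and 4 (0.675%). For OA it became 1 with a trended robust spread (1.79%) and 7 with array quality weights (Ndufa4, Ndufb4, Sdha, Uqcrh, Atp5md, Ndufaf1 and Ndufaf2, or 8.24% of the 85, beside 6.31%). For PA against PMA it became 1 with the dimmest 1 in 3 left out (3.43%), after cyclic loess (0.664%) and with a trended robust spread (2.60%), Uqcrh each time. For the mean of the 4 acids it became 3 after cyclic loess (0.855%) and 4 with array quality weights (2.69%). The causes were not tested.

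Leaving out 1 array at a time gave 0 to 1 genes for PMA (without control replicate 3, 0.133%, or PA replicate 2, 0.685%), 0 to 2 for PA against PMA and 0 to 2 for PA against SA (each without PA replicate 1, 2.38% and 2.65%), and 0 to 0 for the other contrasts. The medians of the 85 genes ran from -0.023 to 0.021 for PA, -0.017 to 0.007 for PMA, -0.051 to -0.017 for SA and -0.054 to -0.009 for OA. For PMA the median was -0.060 after cyclic loess and -0.035 without PMA replicates 1 and 4.

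Arrays that did not overlap were counted again. Higher genes numbered 7 in PA cells without PA replicates 2 and 4 (10% of all genes), and 1 each in PMA, SA and OA cells after cyclic loess (4.02%, 3.65% and 7.12%). Lower genes in PMA cells numbered 19 after cyclic loess (4.48%) and 19 without PMA replicates 1 and 4 (7.32%). With 1 array left out, higher genes numbered 2 to 7 for PA (5.17% to 13.0% of all genes), 5 to 8 for PMA (10.1% to 19.5%), 4 to 8 for SA (5.98% to 8.38%) and 3 to 15 for OA (11.3% to 17.9%). Lower genes numbered 2 to 10 for PA (2.02% to 5.14%), 11 to 16 for PMA (1.53% to 2.34%), 7 to 13 for SA (3.33% to 4.42%) and 14 to 21 for OA (5.90% to 8.63%).

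The replicate number as a block (replicate block) gave 0 genes in every contrast. Deviations from the group means correlated between same-numbered arrays at -0.433 to 0.396. These correlations were not set against those of arrays with different numbers. Whether same-numbered arrays share a culture or a run therefore cannot be told. Of 5792 recomputed differences of named genes from control, 16 newly passed, 29 moved by more than the spread between arrays without passing, and 172 changed sign, none of which passed. The sign changes started from differences of at most 0.16 in size. Among them were Uqcr10 in PA cells with probe sets averaged (-0.07, against 0.09), Ndufb4 in PA cells without PA replicates 2 and 4 (0.04, against -0.04) and Ndufs8 in OA cells without OA replicate 2 (0.01, against -0.08).

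Dim probe sets and OA with 3 arrays limit what the arrays can show, and whether probe sets read near-identical copies was not tested.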
